A study of Homo sapiens with 10 samples.

Results

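Interactions that were called in every replicate of both cell types, 7822 in number, are described here. A member is a pair of HindIII fragments, 1 a baited promoter fragment and the other a promoter-interacting region (PIR), that had a score of at least 12 in both ESC and both NEC replicates. These pairs were 7822 of the 274669 pairs called in at least 1 replicate, with 216360 called in 1, 35924 in 2 and 14563 in 3 of the 4 replicates. Promoter Capture Hi-C (PCHi-C), which pulls promoter fragments and whatever is ligated to them out of a Hi-C library, was done on undifferentiated cells of the human ESC line H9 (WA09) and on neuroectodermal cells (NECs) differentiated from them and harvested on day 7. Each cell type had 2 biological replicates, of which ESC replicate 2 combined technical replicates, and mRNA-seq was done on 2 libraries of each cell type. All groups came from the single H9 line, without genetic modification or any treatment but differentiation. The value in each list was a CHiCAGO score, that is −log of a p-value after weighting for how far apart the fragments lie, and no read numbers accompanied it, so the depth behind a score is unknown. The members were chosen by these scores, which are therefore given below as a description and without a test.

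Contacts between a promoter and a distant fragment bring regulatory DNA and genes together inside the nucleus. Some are made by cohesin, which extrudes a loop of chromatin until it meets CTCF bound to its motif, typically with the motifs at the loop ends facing each other. Others gather promoters of active genes, genes of a shared nuclear body, or developmental genes that carry Polycomb marks in pluripotent cells.

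The reference sequence of a few ends shows what the calls joined. The first sequences, on GRCh37, are shown because the ends of this retained pair resemble each other, and the capitals mark a run of bases that the other end shared exactly with the genome just outside the bait. The OR4C5 bait, of an olfactory receptor gene, was paired with a fragment of 252 bases outside genes (chr11:50038981-50039232, plus strand), and 65 of them recurred 127 bases past that bait (chr11:48389032-48389282, minus strand).
OR4C5 other end: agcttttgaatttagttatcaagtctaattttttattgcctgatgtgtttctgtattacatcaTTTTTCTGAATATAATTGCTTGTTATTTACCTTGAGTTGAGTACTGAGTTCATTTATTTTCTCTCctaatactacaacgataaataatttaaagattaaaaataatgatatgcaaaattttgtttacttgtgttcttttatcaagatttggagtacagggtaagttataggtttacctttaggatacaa
Beside the OR4C5 bait: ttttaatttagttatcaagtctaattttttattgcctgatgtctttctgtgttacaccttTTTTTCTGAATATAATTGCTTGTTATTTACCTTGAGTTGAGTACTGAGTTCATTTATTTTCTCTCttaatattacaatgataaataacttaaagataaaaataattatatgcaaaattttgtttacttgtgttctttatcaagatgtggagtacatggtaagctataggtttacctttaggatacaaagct

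The next sequences are shown as ends of retained contacts of developmental promoters, and their capitals mark a core of the CTCF motif. The motif was searched as AGGGGGCGC or AGGTGGCAG on both strands, and matches can overlap at their ends. The fragment contacted by the IRX3 promoter held the first core in IRX5, outside its exons (chr16:54966830-54966928, plus strand). The fragment contacted by the GLI2 promoter held both cores, in no gene (chr2:121828685-121828783 and chr2:121830755-121830853, minus strand). A match is a description of the letters and does not show binding.
IRX3 other end: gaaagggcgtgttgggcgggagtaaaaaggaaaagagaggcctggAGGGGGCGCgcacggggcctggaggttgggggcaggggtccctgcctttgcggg
GLI2 other end, first core: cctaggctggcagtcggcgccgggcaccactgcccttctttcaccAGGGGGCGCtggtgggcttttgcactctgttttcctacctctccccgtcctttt
GLI2 other end, second core: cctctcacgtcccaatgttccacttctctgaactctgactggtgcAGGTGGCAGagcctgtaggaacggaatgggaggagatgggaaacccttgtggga

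The members made up 8.21% of the 95283 calls of ESC replicate 1, 9.05% of the 86429 calls of ESC replicate 2, 7.80% of the 100305 calls of NEC replicate 1 and 9.64% of the 81168 calls of NEC replicate 2. They lay among the stronger calls of each list. The median score of members was 15.96 in ESC replicate 1, 15.40 in ESC replicate 2, 16.39 in NEC replicate 1 and 15.46 in NEC replicate 2, against 13.07, 13.02, 13.10 and 13.06 over all calls of the same lists. Of the 1000 highest calls of a list, 630, 591, 666 and 653 were members in the same order of replicates.

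Many members were close to the threshold in at least 1 replicate. The lowest of the 4 scores was between 12 and 13 in 3285 members, between 13 and 15 in 2696, between 15 and 20 in 1444 and at least 20 in 397. Just outside the set were the 14563 pairs called in 3 replicates, of which 5728 lacked only the NEC replicate 2 call, 3826 only that of ESC replicate 2, 2641 only that of ESC replicate 1 and 2368 only that of NEC replicate 1. Of the 14563 pairs, 11521 were still in the merged list of the cell type with the missing call, where both replicates had been scored together. Their median score there was 14.52, and the median over members of the lower of the 2 merged scores was 18.04. Nearly all members were in the merged lists, 7801 in that of ESCs and 7807 in that of NECs. With NEC replicate 2 left out, 13550 pairs from 5987 baits would be members.

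Retained interactions were mostly short and mostly joined promoters to promoters. In 4516 members (57.7%) the other end was itself a bait, against 47.8% of pairs called in 3 replicates, 36.7% in 2 and 19.8% in 1. The 7766 members within a chromosome had a median distance of 198 kb, with quartiles of 98.1 and 380 kb. The median distance was 238 kb for pairs called in 3 replicates, 305 kb in 2 and 543 kb in 1. Members with a bait at the other end were closer together (median 172 kb) than those with a non-bait PIR (234 kb).

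**Figure D1:**
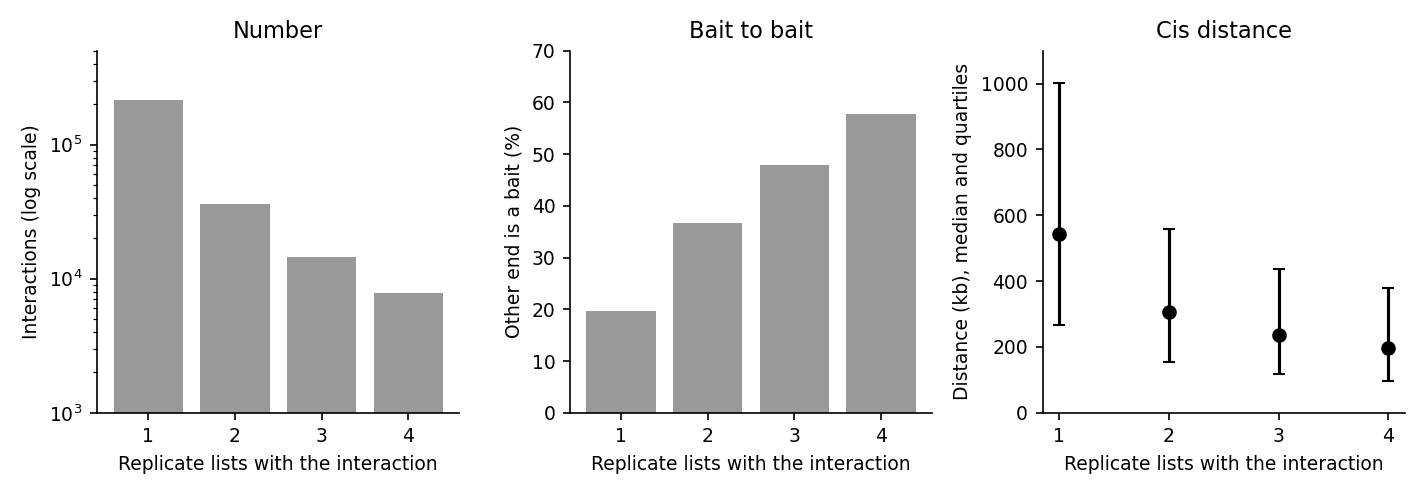
Interactions by the number of replicate lists (1 to 4) that hold them: their number on a log scale, the percentage whose other end is a bait, and the cis distance in kb (point, median; bars, quartiles). From 1 to 4 lists the bait-to-bait share went from 19.8% to 57.7% and the median distance from 543 to 198 kb.

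The share of called pairs that was retained fell with distance. It was 7.82% under 50 kb (961 members), 7.21% from 50 to 100 kb (1013), 5.73% from 100 to 200 kb (1935) and 3.08% from 200 to 500 kb (2565). Beyond that it was 1.25% up to 1000 kb (882), 0.75% from 1 to 2 Mb (376) and 0.44% above 2 Mb (34). The share was 6.70% for pairs with a bait at the other end and 1.60% for those with a non-bait PIR, and the median distance differs between these classes too. In the 376 members of 1 to 2 Mb, 73.7% joined baits, which rests largely on the histone genes described below.

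Of the 4516 members between baits, 592 were 296 contacts called from both ends, so the 7822 members were 7526 distinct contacts. A bait-to-bait contact has a score from each end, and 2895 of these members had no call from the other end in any replicate. Members started from 3991 of the 21875 baits (18.2%). Of these baits, 2416 had 1 retained contact, 797 had 2, 727 had 3 to 9 and 51 had 10 or more, up to 37. The 51 baits held 799 members (10.2%).

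Non-bait PIRs of members differed from those of pairs called once in what the reference sequence held. Their median GC content was 45.5%, against 44.6% for pairs called in 3 replicates, 43.7% in 2 and 41.8% in 1. A gene start outside the bait set lay in 13.6% of them, against 7.98% for pairs called once, and an exon in 52.2% against 41.1%. The share that lay in a gene body was about equal (72.9% and 71.9%). A CTCF core motif was in 25.9% of all PIRs of members. It was in 19.5% of their non-bait PIRs and in 13.1% of those called once. Among fragments of like length the same order was seen, with 10.1% against 7.28% for 2 to 4 kb, 16.3% against 11.4% for 4 to 6 kb and 21.4% against 17.0% for 6 to 10 kb. GC content differed in each length class too, and its part in the motif share was not tested.

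Motif orientation could be read in 517 members in which each end had the core on 1 strand only. The motifs faced each other in 162 of these (31.3%) and faced away in 125 (24.2%). Among pairs called once the shares were 26.9% and 22.4% of 7509. The FOXD2 promoter, of a forkhead factor, was in 1 of the convergent members, a contact over 180 kb with scores of 30.16 and 31.40 in ESCs and 21.87 and 19.12 in NECs.

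Scores of members were compared between cell types with the replicates side by side. Both NEC scores were above both ESC scores in 1635 members (20.9%), both ESC scores were above both NEC scores in 1257 (16.1%), and the replicates overlapped in 4930 (63.0%). With 2 replicates on each side, either order also arises often without a difference between the cell types. For a single contact, here and below, the order therefore does not show such a difference. Across the 7822 members the Spearman correlation of scores was 0.47 between the ESC replicates and 0.41 between the NEC replicates, and between cell types it ran from 0.30 to 0.49. These correlations are a description over pairs that share baits and lists. The replicates of a cell type resembled each other no more closely than ESC replicate 1 resembled NEC replicate 1. Members under 50 kb more often had both ESC scores higher (217 of 961, 22.6%) than both NEC scores (92, 9.57%). Members with a non-bait PIR had the opposite order, 831 of 3306 (25.1%) with both NEC scores higher and 465 (14.1%) with both ESC scores higher, and whether the 2 shares differ beyond the replicate error of the scores was not tested.

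**Figure D2:**
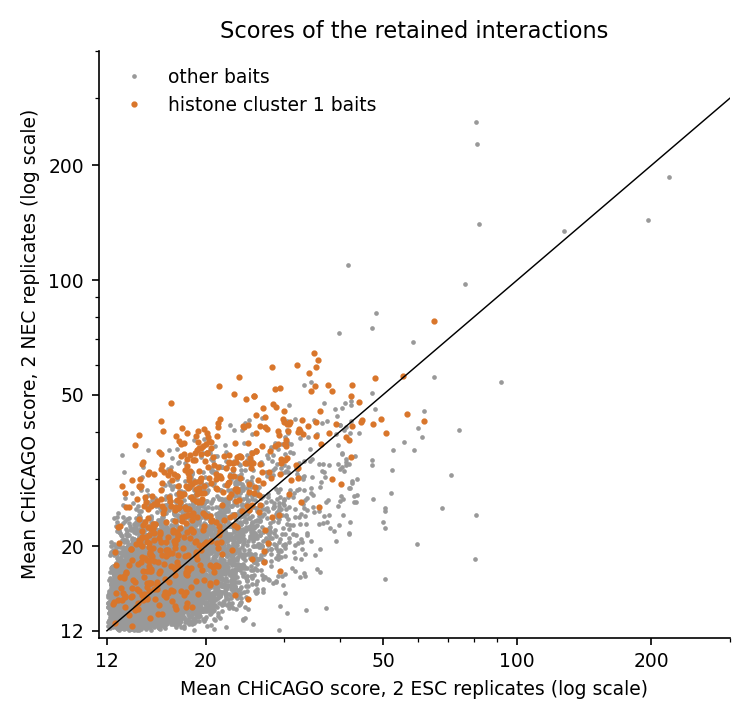
Mean CHiCAGO score of each retained interaction in the 2 ESC replicates (x) and the 2 NEC replicates (y), both on log scales; each point is 1 interaction and the line marks equal means. Points of baits in the histone gene cluster 1 (orange) lie mostly above the line, and both NEC scores were above both ESC scores in 248 of 530 of them.

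The histone gene cluster 1 on chr6 was the densest group of retained contacts. Its genes encode the linker and core histones that are made in S phase, and they lie in several groups separated by other genes. Its 36 baits started 530 members (6.78% of all), with a median distance of 915 kb, and 82.3% of them ended in another bait. The median scores were 18.76 and 18.05 for ESCs, and for NECs 21.96 and 28.30. Both NEC scores were above both ESC scores in 248 (46.8%) and the reverse held in 20 (3.77%), beside 20.9% and 16.1% over all members. In the 7292 members of other baits these shares were 19.02% and 16.96%, and the median distance was 188 kb.

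The bait with the most retained contacts, that of HIST1H2AH and HIST1H2BK, had 37 of 126 called, and 23 of these ended in other baits. The HIST1H3H bait was next with 31 of 102. The bait of HIST1H2AD and HIST1H3D had 27 of 130, that of HIST1H4J had 24 of 93 and that of HIST1H1B had 24 of 108. The pair of HIST1H4I with HIST1H3H, 672 kb apart, scored 63.38 and 66.64 in ESCs and 68.59 and 88.00 in NECs. The cell types lay close to each other without overlap. The pair of HIST1H2AG and HIST1H2BJ with HIST1H4K scored 23.67 and 23.85 in ESCs and 42.48 and 68.50 in NECs. HIST1H3B with HIST1H4K scored 12.58 and 30.35 in ESCs and 37.46 and 67.94 in NECs over 1765 kb. A single non-bait fragment (chr6:27107453-27111875) was the PIR of 16 histone baits, more than any other non-bait PIR.

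Some histone genes resemble each other in sequence, so shared sequence was measured between the ends. In HIST1H4I with HIST1H3H 0.04% of the 36-base words of the other end recurred within 20 kb of the bait, and in HIST1H3I with HIST1H2AH and HIST1H2BK 0.59% did. Reads of similar genes could still be assigned to the wrong gene, and the part of that in the scores was not tested. Of 25 tested histone genes in retained baits, on chr6 and elsewhere, 2 rose in NECs and none fell, by edgeR's quasi-likelihood test at an adjusted p under 0.05 and a log2 change over 1.5 either way. Of all 17564 tested genes 11.4% rose and 9.68% fell, and a count of 2 in 25 that rose is near the first share. The 2 genes were HIST1H1E of cluster 1, at 0.11 and 0.08 CPM in ESCs and 0.98 and 0.45 in NECs, and HIST2H2BE on chr1, at 2.28 and 2.18 CPM in ESCs and 9.31 and 5.35 in NECs. Counts could be low, as with 2 and 2 in ESCs and 21 and 11 in NECs for HIST1H1E. How fully mRNA-seq libraries take up histone transcripts was not tested, so these counts may not measure histone expression.

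Members within chromosomes linked fragments into 2015 connected clusters, of which 969 were a single pair of fragments and 161 had 10 or more fragments. The latter held 3692 members (47.5% of those in cis). After the histone genes (86 fragments, 542 members), the cluster with most fragments was on chr1 (62 fragments, 93 members). It held epidermal and S100 genes and many others, such as ILF2 and ADAR. The next lay over MHC class III and class II genes on chr6 (48 fragments, 82 members). A cluster around GAPDH and CHD4 on chr12 had 45 fragments and 71 members, and that of the protocadherins on chr5 had 43 and 79. The order of scores between cell types differed from cluster to cluster. Both ESC scores were above both NEC scores in 21 of 82 members at the MHC and 3 had the opposite order. The counts were 20 and 7 of 71 around GAPDH and CHD4, and 23 and 4 of 59 around NES and BCAN on chr1, which encode an intermediate filament and a proteoglycan of neural cells. The cluster of TMEM179B and SLC3A2 on chr11 had 4 of 48 members higher in both ESC replicates and 10 in both NEC replicates. That of ZNF703 and FGFR1 on chr8 had 18 of 51 members higher in both NEC replicates and 3 in both ESC replicates.

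Outside the histone genes, most of the baits with most retained contacts were of 2 kinds. The ADAM30 bait, with 20 of 98, was of neither and is described below with the long contacts. In the first, a bait in a gene-dense region contacted only other baits. The GTF3C2 bait, of a subunit of the RNA polymerase III factor TFIIIC, had 20 retained of 42 called, all with baits between 12.97 and 394 kb away, including those of CAD, MPV17 and UCN. The bait shared by TMEM179B and TMEM223 had 18 of 67, the SLC44A4 bait 15 of 40, the PCDHB5 bait 13 of 38 and the ABCF3 bait 12 of 31, and every one of these ended in another bait. In the second kind, 1 bait contacted a row of neighbouring non-bait fragments. ADAMTS8, of a secreted metalloprotease, had 21 of 50, all in chr11:130691326-130775150 and 393 to 472 kb away, only 1 of them a bait, and its neighbour ADAMTS15 had 13 of 44 in the same stretch. CECR2, of a chromatin remodelling factor, had 13 of 58, only 1 of them a bait. These were not in a single stretch but on both sides of the CECR2 bait, 83.9 to 238 kb away. ADAMTS8 fell by 1.99 on the log2 scale (SE 0.29), with 9.69 and 9.26 CPM in ESCs and 3.04 and 1.74 in NECs, by edgeR with an adjusted p of 0.0015, while ADAMTS15 (4.98 and 6.18 CPM in ESCs, 9.17 and 11.1 in NECs) stayed under the fold threshold with a log2 change of 0.85 (SE 0.21). Both thus kept contacts with the same stretch in all replicates and differed in sign of expression change.

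Several families of developmental genes had a larger share of retained baits than baits in general. The share of baits with at least 1 member was 87.0% for histone genes (40 of 46), 75% for ZIC and GLI genes (6 of 8), 68.6% for HOX genes (24 of 35) and 66.7% for the clustered protocadherins (24 of 36), against 18.2% of all baits. GATA genes had 50% (3 of 6), WNT genes 41.2% (7 of 17), forkhead genes 36.8% (14 of 38), other homeobox genes 35.3% (48 of 136) and SOX genes 33.3% (6 of 18). It was 32.7% for basic helix-loop-helix genes (16 of 49), 31.8% for FGF genes (7 of 22), 30.8% for nuclear receptors (12 of 39) and 29.4% for T-box genes (5 of 17). Metabolic and other large families were near the general level, with 19.2% for cytosolic ribosomal proteins (15 of 78), 21.3% for oxidative phosphorylation (16 of 75), 17.9% for solute carriers (60 of 335) and 17.8% for numbered zinc finger genes (69 of 387). Olfactory receptors (43 of 307) and proteasome genes (6 of 43) were at 14.0%, and keratins and keratin-associated proteins at 14.4% (16 of 111). BMP, TGFB and related ligands were at 20.7% (6 of 29). Counted over called pairs instead of baits, the share retained was 2.85% in all. It was 16.8% for histone genes, 6.90% for protocadherins, 6.49% for FGF genes, 6.44% for HOX genes and 5.91% for ZIC and GLI genes. For forkhead genes (3.19%), T-box genes (3.42%), SOX genes (2.71%) and nuclear receptors (2.66%) it was near the share of all calls. The families were not tested against the rest.

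**Figure D3:**
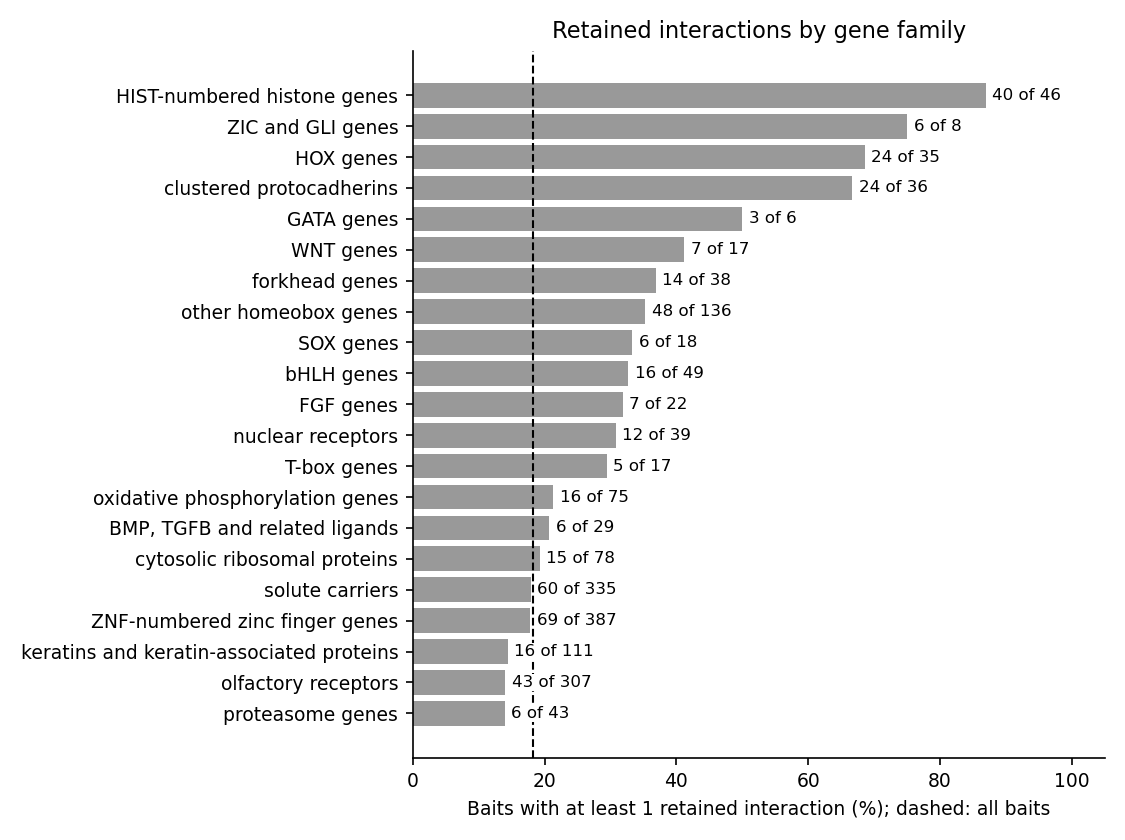
Percentage of baits with at least 1 interaction called in all 4 replicates, for each gene family (bars; the label gives retained baits of all baits of the family), with the 18.2% of all baits as a dashed line. Histone, ZIC and GLI, HOX and protocadherin genes are the 4 highest, from 66.7% to 87.0%, and proteasome, olfactory receptor and keratin genes are the lowest.

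HOX genes, which set position along the body axis, started 75 members from 24 baits, with a median distance of 207 kb. Only 8 of these ended in another HOX bait. Promoters of the HOXC genes met in a stretch next to SMUG1, and 1 fragment there (chr12:54583081-54591267) was the PIR of 7 HOXC baits, 161 to 238 kb away. HOXC8 contacted it with scores of 30.95 and 25.81 in ESCs and 32.76 and 28.89 in NECs. HOXC9 contacted it with 30.85 and 24.85 in ESCs and 41.45 and 30.23 in NECs. These values overlapped between the cell types. The neighbouring fragment was the PIR of 6 HOXC baits. In the HOXD cluster on chr2, HOXD3, HOXD8 and HOXD9 shared a PIR 502 to 516 kb away (chr2:177501443-177506085). This fragment was itself a bait, that of AC017048.3 and AC017048.4, and HOXD4 contacted it too. HOXD3 scored 12.11 and 20.78 in ESCs and 22.70 and 40.98 in NECs with it, and HOXD8 17.93 and 19.30 in ESCs and 21.31 and 41.22 in NECs. Here both NEC scores were above both ESC scores, and this order held in 16 of the 41 members of the cluster around HOXD, against 4 in the other direction. At HOXA, the HOXA2 bait and the bait that HOXA3, HOXA5 and HOXA6 share contacted the same fragment in SKAP2 (chr7:26897455-26902411), at 240 and 289 kb.

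HOX genes in retained baits could be tested in 6 cases. HOXA2 had 0 and 1 counts in ESCs and 732 and 674 in NECs (34.2 and 27.3 CPM). HOXB2 had 2 counts in each ESC library and 542 and 293 in NECs. All 6 rose in NECs, beside 11.4% of all tested genes, and over the whole family 7 of 8 tested HOX genes rose and 1 fell. The HOXA2 contacts in SKAP2 scored 15.97 and 15.36 in ESCs and 19.26 and 25.01 in NECs for one fragment, and 13.31 and 17.79 in ESCs and 12.26 and 13.13 in NECs for the next.

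ZIC and GLI genes encode zinc finger factors of neural development and Hedgehog signalling. They had 11 members, and both NEC scores were above both ESC scores in 8 of these and the reverse in none, beside 20.9% and 16.1% of all members. GLI2 had a contact at 340 kb with scores of 14.93 and 18.62 in ESCs and 30.83 and 25.88 in NECs. The ZIC2 and ZIC5 bait contacted the CLYBL-AS2 bait with 24.28 and 17.75 in ESCs and 36.99 and 32.14 in NECs. Its contact with the CLYBL bait did not have this order, at 15.74 and 14.09 in ESCs and 14.15 and 12.01 in NECs. Of 7 tested ZIC and GLI genes in retained baits 2 rose and none fell, beside 11.4% and 9.68% of all tested genes. ZIC1 (0.11 and 0.24 CPM in ESCs, 24.1 and 6.04 in NECs) and ZIC4 (0.16 and 0.08, then 9.54 and 1.09) rose. GLI2 was at 66.4 and 66.1 CPM in ESCs and 71.9 and 83.8 in NECs and did not pass the test.

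Promoters of other regulators of early development are given with their retained contacts of those called in any replicate, beside 2.85% of all called pairs that were retained. IRX3, a homeobox factor of neural patterning, had 6 of 37, all near its neighbour IRX5 at 601 to 655 kb. The contact with the IRX5 bait scored 17.91 and 19.41 in ESCs and 19.25 and 25.62 in NECs, and that with the fragment holding the CTCF core scored 29.71 and 25.57 in ESCs and 22.34 and 18.04 in NECs. From the IRX5 bait, 5 contacts were retained, 4 of them at and beside IRX3. IRX3 was at 0.74 and 0.89 CPM in ESCs and 46.8 and 30.5 in NECs, a rise of 5.54 on the log2 scale (SE 0.30), and IRX5 rose by 3.32 (SE 0.30). SOX2, which both cell types express, had 2 of 50, at 540 kb (14.85 and 12.18 in ESCs, 23.07 and 16.77 in NECs) and 902 kb (17.16 and 16.00 in ESCs, 13 and 20.65 in NECs). PAX6, a paired box factor of neuroectoderm, had 1 of 26, in DCDC1 at 575 kb, with 12.75 and 12.64 in ESCs and 17.39 and 17.07 in NECs. Its RNA was at 1.64 and 1.13 CPM in ESCs and 86.4 and 52.8 in NECs.

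GATA6, a factor of endoderm, had 1 of 8, with 16.35 and 13.94 in ESCs and 21.85 and 19.08 in NECs. SALL1 had 1 of 21, whose scores were near each other in all replicates (23.74 and 20.68 in ESCs, 21.88 and 21.42 in NECs). TBX3 had 1 of 32 over 1231 kb, with 12.23 and 12.26 in ESCs and 16.91 and 14.92 in NECs. HOXD13 had 2 of 30 and RAB3B, of a vesicle GTPase, 1 of 12. NR2F1 (30 called), OTX2 (22), LMO4 (36) and MEIS2 (16) had none, and the start of LHX2 lay in no bait. In GATA6, PAX6, TBX3 and GLI2 all NEC scores were above all ESC scores. Of these genes, GATA6, TBX3 and GLI2 did not pass the test for expression. GATA6 was at 1.43 and 6.87 CPM in ESCs and 1.12 and 1.13 in NECs. Its log2 change was -1.90 (SE 0.69), with an edgeR adjusted p of 0.051. TBX3 was at 1.01 and 1.01 CPM in ESCs and 0.98 and 0.61 in NECs.

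**Figure D4:**
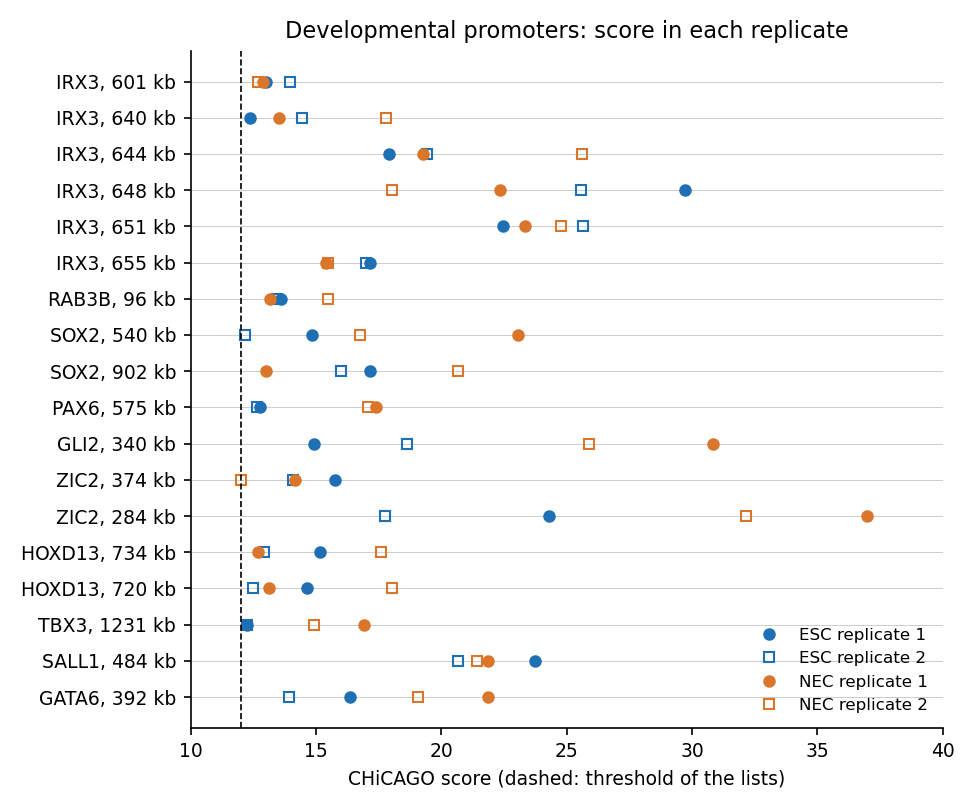
CHiCAGO score (x) of each retained interaction of the named developmental promoters, 1 row per interaction with the gene and the distance in kb; blue, ESC replicates; orange, NEC replicates; filled circles, replicate 1; open squares, replicate 2; dashed line, the threshold of 12. The GLI2, PAX6, TBX3 and GATA6 rows have both NEC scores to the right of both ESC scores. Some rows of other genes do too, such as the nearer SOX2 contact and that of ZIC2 with the CLYBL-AS2 bait. The SALL1 and RAB3B rows show scores close together.

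Several signalling and homeobox genes had rows of retained contacts. FGF18, of a secreted growth factor, had 10, between 422 and 493 kb away at and beside FBXW11, with scores from 12.22 to 22.60. FGF8, which patterns the midbrain and limb, had 5, at 161 to 190 kb, and its strongest scored 19.40 and 20.31 in ESCs and 18.37 and 19.96 in NECs. Of 5 tested FGF genes in retained baits 4 fell and none rose, beside 9.68% of all tested genes that fell and 7 of the 15 tested genes of the whole family. FGF8 was at 13.2 and 19.7 CPM in ESCs and 2.01 and 3.20 in NECs, a log2 change of -2.65 (SE 0.30). Of 5 tested WNT genes in retained baits 4 rose and none fell, beside 11.4% of all tested genes that rose and 10 of the 14 tested genes of the whole family. WNT7B was at 0.16 and 0.24 CPM in ESCs and 28.0 and 8.99 in NECs, and its contact at 351 kb scored 16.96 and 13.23 in ESCs and 16.29 and 12.48 in NECs, about equal between the cell types.

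Of the other homeobox genes in retained baits, 18 of 31 tested rose and 3 fell, beside 50 and 14 of the 91 tested genes of the whole family and 11.4% and 9.68% of all tested genes. EN2, of the midbrain and hindbrain, had 6 members, 2 of them over 1.5 Mb (36.41 and 24.53 in ESCs against 13.26 and 13.54 in NECs for the farthest). EN1 had 4 and LHX1 9. Both ESC scores were higher in 34 of the 119 members of this family and both NEC scores in 17. LHX1 fell, with 1.38 and 2.67 CPM in ESCs and 0.47 and 0.61 in NECs. ID3, an inhibitor of basic helix-loop-helix factors, had 5 at 40.9 to 92.7 kb and rose by 1.66 on the log2 scale (SE 0.15). HES1, a target of Notch signalling, had 5 at 285 to 436 kb and rose by 1.01 (SE 0.17), under the fold threshold.

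Clustered protocadherins, cell surface proteins that give neurons their identity, had 71 members from 24 baits, and 47 of them ended in another protocadherin bait. Their order between cell types was even, with both NEC scores higher in 15 and both ESC scores higher in 12. Of 28 tested protocadherin genes in these baits 16 rose and none fell, beside 23 and 0 of the 45 tested genes of the whole family and 11.4% and 9.68% of all tested genes. The authors' counting could split reads between isoforms that share exons.

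The labels of the RNA libraries were checked with markers. Of 10 pluripotency genes 9 fell in NECs, of 10 neuroectoderm genes 9 rose, of 6 neural crest genes 4 rose and all 6 mesendoderm genes fell, each list over all 4 libraries. The NEC libraries stood apart from each other in these markers. All 6 neural crest genes were higher in NEC replicate 1, with a summed level of 157 CPM against 68.9 in replicate 2 and 23.98 and 23.6 in ESCs. Of the 10 pluripotency genes 9 were higher in NEC replicate 2, with 944 CPM against 542 in replicate 1 and 5549 and 6114 in ESCs. The mesendoderm genes summed to 34.8 and 94.9 CPM in the ESC libraries and 5.33 and 3.52 in NECs, and the neuroectoderm genes to 191 and 137 in ESCs and 563 and 459 in NECs. The part of these cell type differences in the expression results was not tested. Without NEC replicate 1, 388 genes in retained baits rose and 274 fell, and without NEC replicate 2, 455 and 331 did. Total counts were 19234087 to 25356382 per library. Both ESC libraries shared a sequencing lane and both NEC libraries another, so lane and cell type cannot be told apart, and fewer cells of a type and less RNA per cell cannot be told apart either. Retained baits held genes of every list, DPPA4 among pluripotency genes, PAX6, POU3F2, ZIC1 and ZIC4 among neuroectoderm genes, PAX3 and SNAI2 among neural crest genes, and EOMES, FOXA2, MIXL1 and SOX17 among mesendoderm genes.

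Genes that start in retained baits changed about as often as genes in general. Of 4495 such genes 3308 were tested, and 408 (12.3%) rose and 294 (8.89%) fell, beside 11.4% and 9.68% of all tested genes. In baits with calls but no member, 1264 (10.6%) of 11944 tested genes rose and 1041 (8.72%) fell. The median log2 change was 0.02 in retained baits and 0.01 over all tested genes. Genes whose bait contacted a non-bait PIR in all replicates were called more often, 223 (15.3%) up and 154 (10.6%) down of 1455, than those with retained contacts to baits only, 185 (9.98%) up and 140 (7.56%) down of 1853. The difference between these sets was not tested.

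The genes with the largest changes of expression in retained baits had contacts that were called, by the rule, in both cell types. POU3F2, a neural POU factor, was at 0.48 and 0.20 CPM in ESCs and 124 and 104 in NECs, a log2 change of 8.44 (SE 0.25, edgeR adjusted p 1.03e-05), and its retained contact over 1179 kb scored 13.85 and 14.73 in ESCs and 12.94 and 14.05 in NECs. ZBTB16, a zinc finger repressor, had 0 and 3 counts in ESCs and 713 and 693 in NECs, and contacted the NNMT bait with 21.02 and 19.28 in ESCs and 27.67 and 42.95 in NECs. The gene that the count table names SEBOX, whose identifier belongs to VTN (vitronectin) in the GENCODE annotation, had 2 counts in each ESC library and 255 and 524 in NECs. No fold is given for genes with 3 or fewer counts in both libraries of a cell type, since it would depend on the prior count.

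LEFTY2, an inhibitor of Nodal signalling, was at 240 and 251 CPM in ESCs and 0.37 and 0.45 in NECs, a log2 change of -9.20 (SE 0.15, edgeR adjusted p 2.82e-06). Its contacts at LBR, 479 and 508 kb away, were called in all replicates, with 12.92 and 15.78 in ESCs and 15.04 and 14.02 in NECs for the nearer. EOMES, a T-box factor of mesendoderm, was at 15.3 and 45.8 CPM in ESCs and 0.47 and 0.36 in NECs, a log2 change of -6.20 (SE 0.68). It kept 3 contacts at CMC1 and AZI2, of which that with the CMC1 bait scored 19.27 and 24.58 in ESCs and 19.53 and 17.24 in NECs. NTS (neurotensin), RYR2 (a calcium channel) and ACTA1 (skeletal muscle actin) fell by 6.94 (SE 0.34), 6.04 (SE 0.35) and 5.91 (SE 0.28) on the log2 scale. In POU3F2, in the nearer LEFTY2 contact and in that of EOMES with CMC1 the ESC and NEC scores overlapped.

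**Figure D5:**
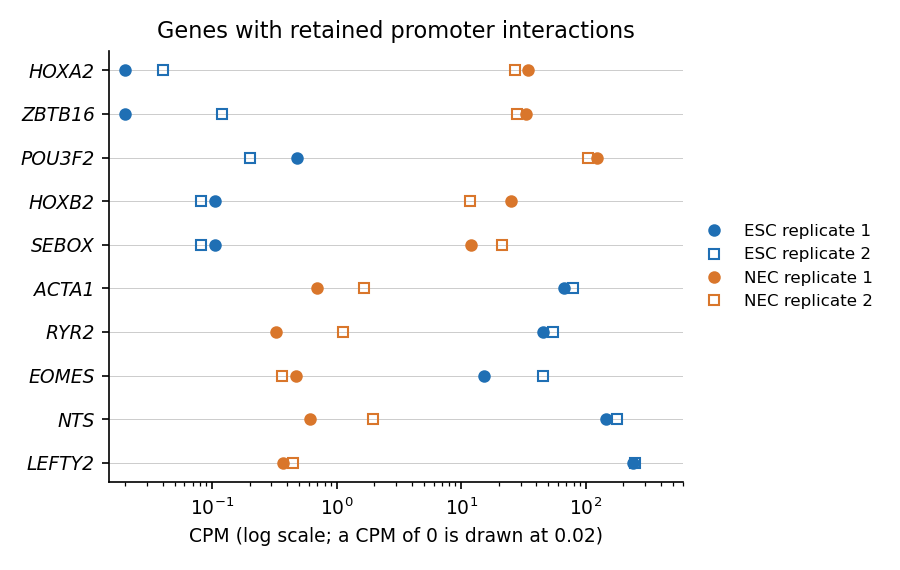
CPM on a log scale of the 5 genes that rose most and the 5 that fell most on the log2 scale among called protein-coding genes in retained baits, 1 point per library (blue, ESC; orange, NEC; filled circles, replicate 1; open squares, replicate 2). The ESC and NEC points are far apart in every row, as in LEFTY2 with 240 and 251 CPM against 0.37 and 0.45.

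Contacts between chromosomes were 56 of the members, from 21 baits, and their median scores were above those of all members, at 38.02 and 35.22 in ESCs and 31.94 and 31.42 in NECs. The bait shared by DHX32, of a helicase family protein, and FANK1 started 20 of them, 7 to fragments of the Y reference sequence. The strongest of these scored 112.94 and 142.36 in ESCs and 87.58 and 181.98 in NECs, and 167 bases of its other end recurred 17621 bases from the bait. C15orf57 with a fragment in CBX3, of a heterochromatin protein, scored 88.45 and 74.42 in ESCs and 62.32 and 394.13 in NECs, where a single NEC replicate stood far above the others. At least 5% of the 36-base words of the other end recurred within 20 kb of the bait in 6 of the 56 (10.7%), against 17 of 7165 (0.24%) cis members up to 2 Mb with ends over 20 kb apart. The part of such shared sequence in these calls was not tested.

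Cis members over 2 Mb were 34, and 19 of them were from the ADAM30 bait, of a metalloprotease family protein. In GRCh37 coordinates their other ends lay across the centromere of chr1, at SEC22B and PDE4DIP. The contact with the SEC22B start, 24660 kb away, scored 107.73 and 34.01 in ESCs and 31.46 and 30.21 in NECs. The longest was that of ZNF697 with an intron of PDE4DIP at 24869 kb, with 28.07 and 19.88 in ESCs and 36.09 and 12.56 in NECs. None of the 34 reached 5% of shared words, a measure that does not bear on where the reference places a fragment. Whether the GRCh37 placement of these fragments holds was not tested. The OR4C5 pair printed above, 1651 kb apart, scored 41.61 in both ESC replicates and 147.17 and 71.64 in NECs, and 15.2% of the words of its other end recurred beside the bait.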

How the data were processed

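PCHi-C and mRNA-seq files of H9 ESCs and NECs at day 7 were used; conventional Hi-C was not analysed here. The authors mapped reads to GRCh37 with HiCUP and scored fragment pairs with CHiCAGO per replicate and for merged replicates, and the deposited lists give each score of at least 12. The deposited RNA values are raw counts per Ensembl gene that the authors made with TopHat2 2.0.8b and SeqMonk, without regard to strand, so overlapping genes cannot be told apart. Groups came from the sample titles. Pairs were matched by identical bait and PIR fragments in Python 3.11.15 with pandas 2.3.3, and reference sequence was read with pysam 0.24.0. Counts were tested with edgeR 4.0.16 (R 4.3.3): filterByExpr with a minimum count of 10 kept 17564 of 31017 genes, then TMM, the quasi-likelihood test and Benjamini-Hochberg adjustment, calling genes at an adjusted p under 0.05 with a log2 change over 1.5 either way. P-values measure the spread between libraries labelled as biological replicates. Simulated counts of 17564 genes, with the same dispersion for all and 200 altered by large folds, gave 199 of these back and 1 false call. Dispersion differs between real genes, so this checks the procedure and does not give the error rate in these data. The members, lists and named genes were chosen with earlier results of these data known. Named items were the 15 baits with most cis members among those with a gene typed as protein-coding in the annotation, which lacked a type for some renamed histone genes such as HIST1H3H, the 10 pairs with the highest lowest score, the longest and strongest trans pairs, the 5 pairs with the largest excess in each cell type, the 5 non-bait PIRs with most baits, the 10 genes with extreme fold changes, 16 developmental promoters, and members of the gene families; others named were chosen after their values were seen. Alternatives were a score of 15, bait pairs left out, other motif settings, each replicate left out, PIRs matched within 10 kb, other count tests and filters, and a replicate block. Some named items are not reported here.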

Additional observations from a re-analysis of the deposited data

How the results depend on the processing

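Of 74 alternative values, 52 stayed within the limits set for them and 22 did not. With a score of at least 15 in all replicates, 1841 pairs from 1077 baits remained, 71.3% of them between baits and 34.1% of oriented pairs convergent, and 114 tested genes rose and 77 fell (12.6% and 8.52% of 904). With pairs between baits left out, 3306 pairs from 1740 baits remained, with a median distance of 234 kb, a motif in 19.5% and 29.1% convergent. The motif share over all PIRs was 25.9%, and it was 20.1% for fragments of 2 to 10 kb and 8.78% for AGGGGGCGC alone, with which 32.5% were convergent. Without a fold threshold, 1080 genes rose and 989 fell. Leaving out each PCHi-C replicate in turn gave 10190 to 13550 pairs and 4998 to 5987 baits, since fewer lists had to agree, and the highest of both was without NEC replicate 2. It gave median distances of 199 to 222 kb, 50.9% to 56.5% between baits, a motif in 23.8% to 26.3% of all PIRs and 29.8% to 30.8% convergent. Leaving out the histone cluster 1 baits, chosen after seeing the data, kept every value within its limit. With a replicate block, 410 genes rose and 294 fell. The deviations of same-numbered libraries had a correlation of 0.061 over genes, which cannot settle whether these libraries were handled together. The depth behind scores is unknown, so a missing call does not show that a contact is absent.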

Other observations

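Genes at both ends of a retained contact were compared, for pairs with 1 tested gene at each end. Among 1269 retained pairs, both genes were called by edgeR in 64, with the same direction in 50 and opposite directions in 14, and Spearman's rho of their log2 changes was 0.16. Among 15554 pairs called in 1 to 3 replicates the counts were 479 and 262, with a rho of 0.08. Distance differed between these sets. Up to 200 kb, 31 of 38 retained and 176 of 224 other pairs had the same direction, with rho of 0.17 and 0.18. Over 200 kb the counts were 19 of 26 and 303 of 515, with rho of 0.14 and 0.04. Pairs share genes, so these values are a description.

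Scores of members piled up between 41 and 44, where 295 scores lay, against 163 between 38 and 41 and 24 between 44 and 47. This touched 209 members, and 73 members had exactly equal scores in a pair of lists, such as 41.61 in both ESC replicates for OR4C5. Differences between scores in this range are therefore not comparable with those below it.

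Chromosome 1 had the most members (1009), followed by chromosome 6 (938), where 4.91% of called pairs were retained. The share of baits with a member was highest on chromosome 1 (22.2%) and chromosome 5 (22.1%), and lowest on chromosome X (10.1%) and chromosome 13 (10.2%).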
